A study of Rattus norvegicus with 6 samples.

Results

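Imprinted genes were examined in the pituitary gland of male rats born to nicotine-exposed or control mothers. The 10 genes, Dlk1, Meg3, Peg3, Peg10, Cdkn1c, Grb10, Nnat, Snrpn, Mest and Plagl1, were taken by name because they are known to be imprinted. No cut on their measured values was used, but earlier results of these data were known when they were chosen. Of the 33294 gene rows in the files, 9 carried these symbols and Meg3 was found under its older symbol RGD1566401. All 10 genes were detected in every library, and all 10 were among the 17292 genes with enough counts to be tested.

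RNA was sequenced from the pituitary of 3 nicotine and 3 control Sprague-Dawley males at 11 weeks of age. The nicotine rats came from dams that carried a 28-day osmotic mini-pump releasing nicotine tartrate at 6 mg/kg per day, and the control rats from dams whose pump held saline. Birth took place on gestational day 19, given as 13 days after pump surgery, so the nominal pump period ran past birth. No genotype or transgene distinguished the groups, and the dam or litter of each rat was not given, so the p-values measure the spread between these rats only. Each library held 28318383 to 85977002 counts, and the counts carry no information on which parental allele was read.

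Tissue identity was checked with marker genes. The summed level of 10 anterior lobe markers, which include the hormone genes Gh1, Prl and Pomc, was 114100 to 176700 CPM (counts scaled to an equal library size) in every library. Although the extraction text in the labels describes testis, 5 germ cell markers together reached 0.033 to 0.085 CPM. A further doubt concerns the group labels. The list of sequenced reads given by the study matches the deposited totals only when nicotine and control are exchanged, so each direction below rests on the deposited labels. Nicotine replicate 2 stood apart from the other libraries, with a mean distance to them of 90.8 over all genes tested against 72.0 to 80.7 for the others (Euclidean distance of log2 CPM). Over the 10 imprinted genes the same distance was 2.67 against 1.67 to 2.09, so the values of the members and the counts of the lists are also given without this library.

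An imprinted gene is read mainly from the copy inherited from 1 parent, because DNA methylation set in the egg or sperm marks only 1 of the parental copies. Imprinted genes lie in clusters that share such a control region, and many of them act on fetal growth, the exit of cells from the cell cycle and the hormone axes of the brain and pituitary. Dlk1, a Notch-like membrane protein, is made by hormone cells of the adult anterior lobe, and the cyclin-dependent kinase inhibitor Cdkn1c takes part when pituitary progenitors leave the cell cycle.

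The methylation that marks imprints falls on CpG dinucleotides. The start regions of 3 genes are shown with each CG in capitals. These windows were set by the annotated start, not by imprint control regions, and their methylation was not measured here. The 3 genes are Dlk1 and Meg3, which share a cluster, and Grb10, whose level was highest in the same library as that of Dlk1. Grb10 was picked after its values were seen, and Nnat and Mest were highest in that library too. The sequences are 300 bases each from RefSeq on build GRCr8, running 5′ to 3′ on the strand of the gene from 250 bases before the annotated start to 50 after it. Dlk1 lies at chr6:134192347-134192646 on the plus strand, Meg3 at chr6:134273806-134274105 on the plus strand and Grb10 at chr14:90816338-90816637 on the minus strand.
Dlk1: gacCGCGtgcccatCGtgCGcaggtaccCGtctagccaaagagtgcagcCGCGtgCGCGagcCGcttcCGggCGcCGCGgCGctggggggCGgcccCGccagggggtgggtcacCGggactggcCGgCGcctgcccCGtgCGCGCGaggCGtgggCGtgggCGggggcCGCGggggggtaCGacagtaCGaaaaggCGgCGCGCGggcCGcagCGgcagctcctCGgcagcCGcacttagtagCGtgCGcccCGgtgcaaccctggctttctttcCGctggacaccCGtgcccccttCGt
Meg3: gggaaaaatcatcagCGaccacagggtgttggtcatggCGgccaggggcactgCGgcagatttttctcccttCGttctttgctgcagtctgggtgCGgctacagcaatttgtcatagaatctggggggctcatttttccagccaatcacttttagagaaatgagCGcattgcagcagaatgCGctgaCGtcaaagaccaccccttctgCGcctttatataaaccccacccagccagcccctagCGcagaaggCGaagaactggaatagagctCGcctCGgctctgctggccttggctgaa
Grb10: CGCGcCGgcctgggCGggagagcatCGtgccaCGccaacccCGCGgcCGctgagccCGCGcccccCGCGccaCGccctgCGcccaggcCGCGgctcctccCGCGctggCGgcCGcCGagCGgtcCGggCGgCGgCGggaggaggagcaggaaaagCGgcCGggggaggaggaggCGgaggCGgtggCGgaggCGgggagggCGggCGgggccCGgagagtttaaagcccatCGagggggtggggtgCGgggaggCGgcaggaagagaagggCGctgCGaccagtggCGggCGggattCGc
The Dlk1 window held 45 CpG and the Grb10 window 44, numbers reached by 1.66% and 1.89% of 33469 rat promoters. The Meg3 window held 13, which 35.3% of promoters reached. Among the other members with a sequence, the counts were 29 for Plagl1, 22 for Peg10, 18 for Mest, 16 for Peg3 and 11 for Snrpn. No promoter was matched for Cdkn1c and Nnat. The median was 20 CpG over the 8 members against 7 over all promoters, and the median GC content was 64.8% against 51.7%. The motif TGCCGC, read on both strands, is bound by ZFP57, a zinc finger protein that protects imprints, when methylated. It occurred in 6 of the 8 windows (all but Peg3 and Mest), against 11.7% of all promoters. The motif itself holds a CpG, and these promoters were not matched to the members in CpG or GC content. Whether the share exceeds that of promoters of like content was not tested. AAGATGGC, the YY1 motif, read on both strands, was in 0 of the 8 windows and in 3.2% of all promoters.

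**Figure D1:**
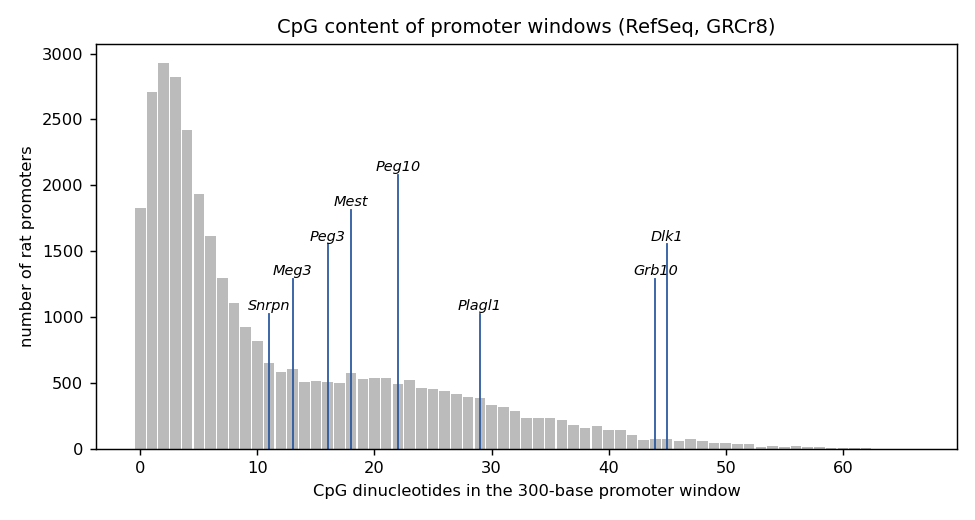
Histogram of 33469 rat RefSeq promoters (y axis, number of promoters) by CpG dinucleotides in the 300-base window (x axis), with lines at the counts of the 8 members (line heights carry no value). Dlk1 (45) and Grb10 (44) sit in the right tail, while Snrpn (11) is the lowest member and lies above the median of 7.

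Comparison of the groups found no member that passed the study's thresholds of an adjusted p below 0.1 and a fold change above 1.5. The edgeR quasi-likelihood test called 0 of 10 members and 0 of 17292 genes (0%), while DESeq2 called 0 members and 62 of 17876 genes (0.347%). At an unadjusted p below 0.05, edgeR had 1 member, Dlk1, against 1062 genes (6.14%). Nicotine and control libraries were fully separate for 2 members, Dlk1 and Cdkn1c, against 1946 of 17292 genes (11.3%). The mean was higher for 7 members and lower for 3 in nicotine rats, and the median log2 fold change was 0.24 against 0.007 over all genes. With 3 libraries in each group an exact permutation test of a single gene cannot go below p = 0.1.

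Dlk1 had the lowest p-value among the members. Its level, in CPM scaled by TMM factors, was 3555, 9729 and 3960 in nicotine rats and 2864, 2866 and 2917 in control rats. All nicotine libraries lay above all controls, and replicate 2 lay far above the other nicotine libraries. The group means were 5748 ± 3454 and 2882 ± 30.3 (SD, n = 3 each). This gave a log2 fold change of 1.00 with a standard error of 0.41 (95% interval 0.10 to 1.90, edgeR adjusted p = 0.806). DESeq2 gave 1.01 with an adjusted p of 0.210. The exact permutation p was 0.1, the smallest possible.

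Spread within the groups was unequal for Dlk1. The coefficient of variation was 60.1% among nicotine rats and 1.05% among controls. Dlk1 took 0.362%, 1.04% and 0.381% of all counts in nicotine rats against 0.274%, 0.279% and 0.298% in control rats. Its highest level was 3.40 times its lowest, a ratio reached by 35 of 1526 genes (2.29%) with a mean above 100 CPM. Without nicotine replicate 2 the log2 fold change was 0.37 (edgeR adjusted p = 0.751).

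Hormone cell markers also shifted in nicotine replicate 2. Of the 10 anterior lobe markers, 5 were highest there (Gh1, Lhb, Fshb, Cga and Ghrhr) and 3 were lowest (Prl, Pomc and Tshb). Gh1, which encodes growth hormone, reached 115800 CPM there and 52430 to 86560 CPM in the other 5 libraries. Lhb, which encodes the beta subunit of luteinizing hormone, stood at 819.9 CPM there and at 75.6 to 223 CPM elsewhere. Prl, which encodes prolactin, was at 17550 CPM against 25330 to 38040 CPM in the others. Pou1f1, the transcription factor of the growth hormone, prolactin and thyrotropin lineages, was at 347 CPM there and at 251 to 412 CPM elsewhere, and was picked after its values were seen. In bulk tissue a larger number of cells of a type and more RNA per cell cannot be told apart, and the part of these shifts in the Dlk1 values was not tested.

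Meg3, a long noncoding RNA made from the maternal copy of the cluster that holds Dlk1, showed another order of libraries. Its level was 29.2, 14.2 and 44.7 CPM in nicotine rats and 23.9, 38.5 and 27.9 CPM in controls. The groups overlapped, and the library highest for Dlk1 was the lowest for Meg3. The log2 fold change was -0.04 (standard error 0.34, interval -0.79 to 0.71; edgeR adjusted p = 0.986). Leaving out nicotine replicate 2 gave 0.28, and leaving out nicotine replicate 3 gave -0.48. The number of Dlk1 counts for each Meg3 count was 122, 683 and 88.5 in nicotine rats and 120, 74.4 and 105 in controls, and the group ratios overlapped (exact permutation p = 0.4).

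**Figure D2:**
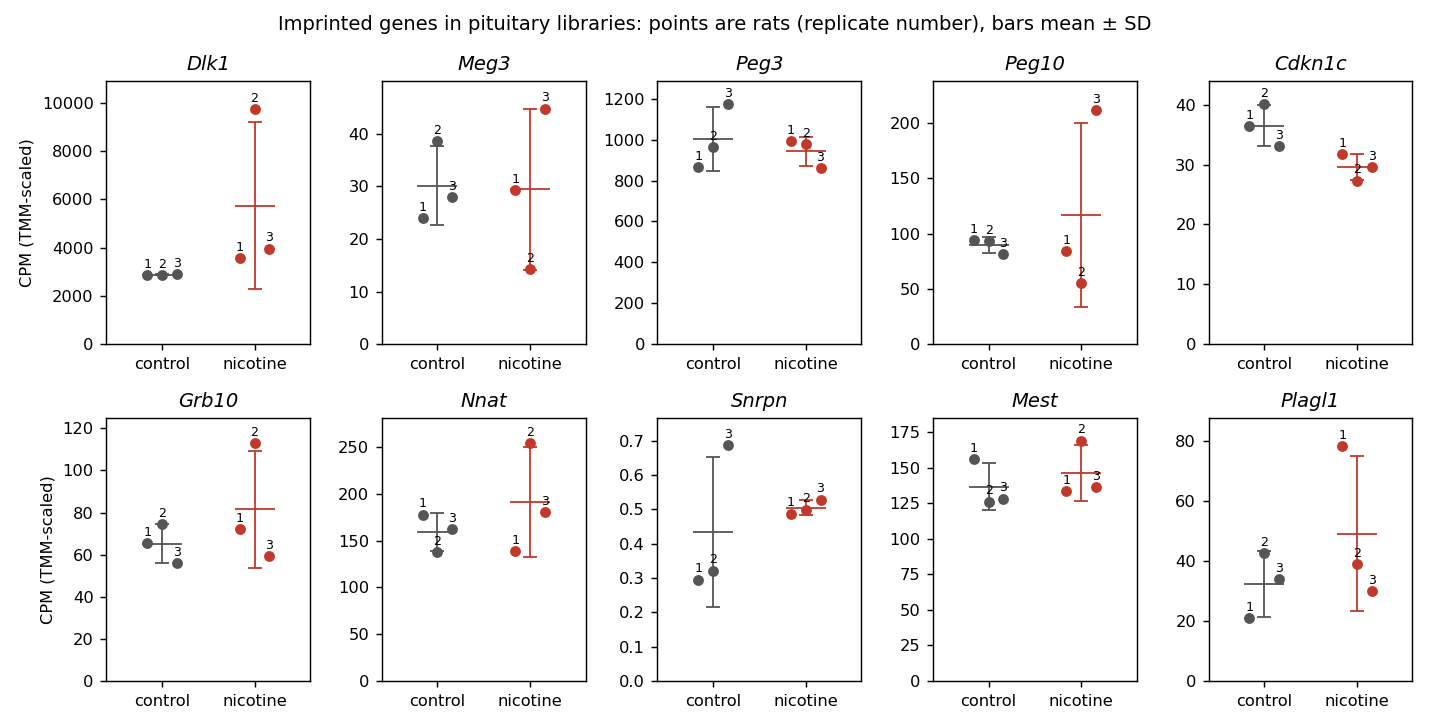
Level of each of the 10 imprinted genes (y axis, CPM scaled by TMM factors, linear from 0) in the control and nicotine groups (x axis), 1 panel for each gene, with numbered points for the rats and bars for mean ± SD (n = 3 each). Dlk1 lies at 3555 to 9729 CPM in nicotine rats and 2864 to 2917 in controls, whereas the libraries of the other genes overlap, apart from Cdkn1c.

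Cell cycle and growth-factor inhibitors came next. Cdkn1c encodes a cyclin-dependent kinase inhibitor and is read from the maternal copy. Its level was 31.8, 27.3 and 29.6 CPM in nicotine rats and 36.4, 40.1 and 33.1 CPM in controls. All nicotine libraries lay below all controls, with means of 29.6 ± 2.23 and 36.5 ± 3.47 (SD, n = 3 each). In edgeR the log2 fold change was -0.31 with a standard error of 0.16 (interval -0.65 to 0.04, adjusted p = 0.813). The exact permutation p was 0.1, the smallest possible. Leaving out any 1 library gave values of -0.37 to -0.23.

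Grb10 encodes an adaptor that binds the insulin and IGF1 receptors and dampens their signal. Its level was 72.3, 113 and 59.4 CPM in nicotine rats and 65.5, 74.4 and 56.0 CPM in controls. The groups overlapped, with nicotine replicate 2 highest. With edgeR the log2 fold change was 0.32 (standard error 0.23, interval -0.18 to 0.82; edgeR adjusted p = 0.832) and 0.003 without that library.

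Zinc finger proteins make up the next pair. Plagl1, paternally expressed, slows the cell cycle and promotes transcription of the receptor for the peptide PACAP. Its level was 78.4, 38.9 and 30.1 CPM in nicotine rats and 20.8, 42.7 and 33.9 CPM in controls. Nicotine replicate 1 was the highest library and control replicate 1 the lowest, and the groups overlapped. The log2 fold change was 0.59 (standard error 0.34, interval -0.17 to 1.35; edgeR adjusted p = 0.821) and 0.08 without nicotine replicate 1. Without nicotine replicate 2 it was 0.72. Peg3, a paternally expressed protein with many zinc fingers, ranged from 860 to 992 CPM in nicotine rats and from 868 to 1175 CPM in controls. The groups overlapped, and the difference was -0.09 on the log2 scale (standard error 0.21, interval -0.55 to 0.37; edgeR adjusted p = 0.944), and -0.12 without nicotine replicate 2.

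Among the remaining members, Peg10, a gene derived from a retrotransposon and needed by the placenta, was the most variable. Its level was 84.0, 55.3 and 212 CPM in nicotine rats and 93.9, 93.5 and 81.7 CPM in controls. Nicotine replicate 3 was the highest library, nicotine replicate 2 the lowest, and the controls lay close together between them. The log2 fold change was 0.38 (standard error 0.38, interval -0.46 to 1.22; edgeR adjusted p = 0.855). Leaving out nicotine replicate 3 gave -0.37, and leaving out nicotine replicate 2 gave 0.71 (edgeR adjusted p = 0.695).

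Nnat encodes neuronatin, a small protein of the endoplasmic reticulum membrane. Its level was 139, 255 and 181 CPM in nicotine rats and 178, 138 and 162 CPM in controls. The groups overlapped and replicate 2 was again the highest nicotine library. A log2 fold change of 0.27 resulted (standard error 0.22, interval -0.22 to 0.75; edgeR adjusted p = 0.843) and -0.003 without that library.

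Mest, a protein of the hydrolase family, varied little, from 133 to 169 CPM in nicotine rats and from 126 to 156 CPM in controls. The groups overlapped, with a log2 difference of 0.10 (standard error 0.17, interval -0.27 to 0.46; edgeR adjusted p = 0.920), which was -0.03 without nicotine replicate 2. Snrpn encodes a spliceosome protein and was read from only 8 to 46 counts in a library. Its level was 0.488, 0.499 and 0.529 CPM in nicotine rats and 0.295, 0.322 and 0.687 CPM in controls. The groups overlapped, and the log2 fold change was 0.22 with a wide interval of -0.74 to 1.18 (edgeR adjusted p = 0.934), and 0.22 again without nicotine replicate 2. The annotated spans of Snrpn and Snurf overlap, so these counts are uncertain.

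**Figure D3:**
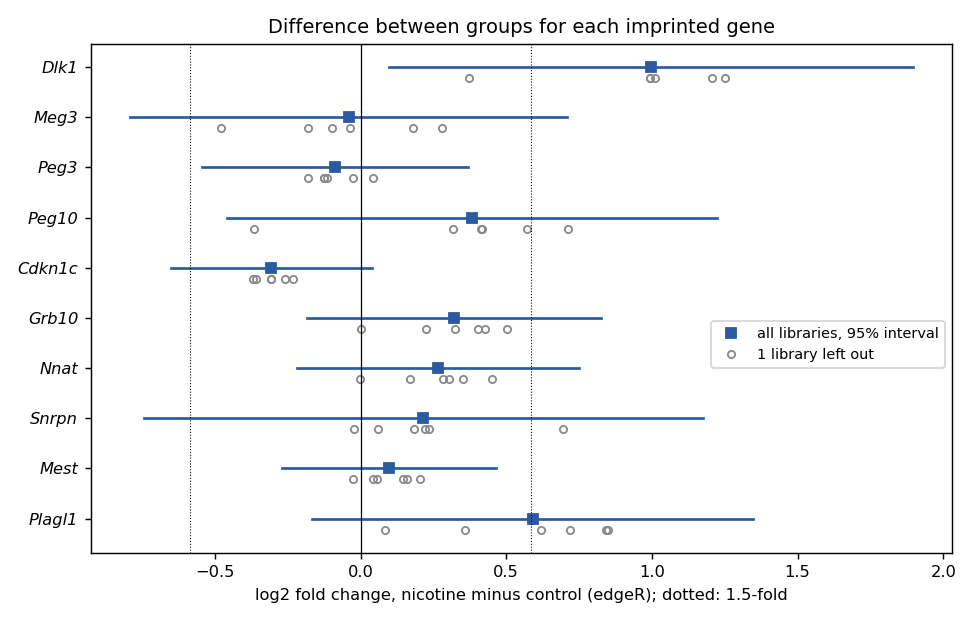
Log2 fold change of nicotine over control (x axis) for each of the 10 imprinted genes (y axis), with squares for the edgeR estimate from all 6 libraries, lines for its 95% interval and open circles for the value with 1 library left out, and dotted lines at a fold change of 1.5. The Dlk1 interval runs from 0.10 to 1.90 and its lowest circle is 0.37, while the intervals of the other genes include 0.

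Members were compared with other genes listed as imprinted across the libraries. Of the 10 genes, nicotine replicate 2 was the highest library for 4 (Dlk1, Grb10, Nnat and Mest) and the lowest for 3 (Meg3, Peg10 and Cdkn1c). Without it the median log2 fold change of the members was 0.11. The number of members whose groups did not overlap was again 2, against 21.7% of all genes tested in that smaller set.

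Likeness of pattern was measured as Pearson's r of log2 CPM over the 6 libraries against 58 genes listed as imprinted. It is a description, since the genes share the same libraries. Whether each of the 58 is imprinted in the rat pituitary was not tested. Dlk1 was most like Trappc9, with r = 0.943, but r was 0.346 without nicotine replicate 2. Meg3 was most like Igf2 (r = 0.966, and 0.938 without that library). For the pairs that follow, the second value leaves that library out. Peg10 was most like Meg3 (0.829, 0.745). Nnat was most like Mcts2 (0.976, 0.907), Mest like Htr2a (0.985, 0.965), Snrpn like Gnas (0.924, 0.937) and Plagl1 like Zdbf2 (0.916, 0.935). Peg3 was most like Klf14 (0.934, 0.939), Grb10 like Mkrn3 (0.904, 0.767) and Cdkn1c like Pon3 (0.743, 0.597). Dlk1 and Cdkn1c were the least alike for each other among the members, with r = -0.803. Nicotine replicate 2 was highest for Dlk1 and lowest for Cdkn1c, and this r was not computed without it.

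**Figure D4:**
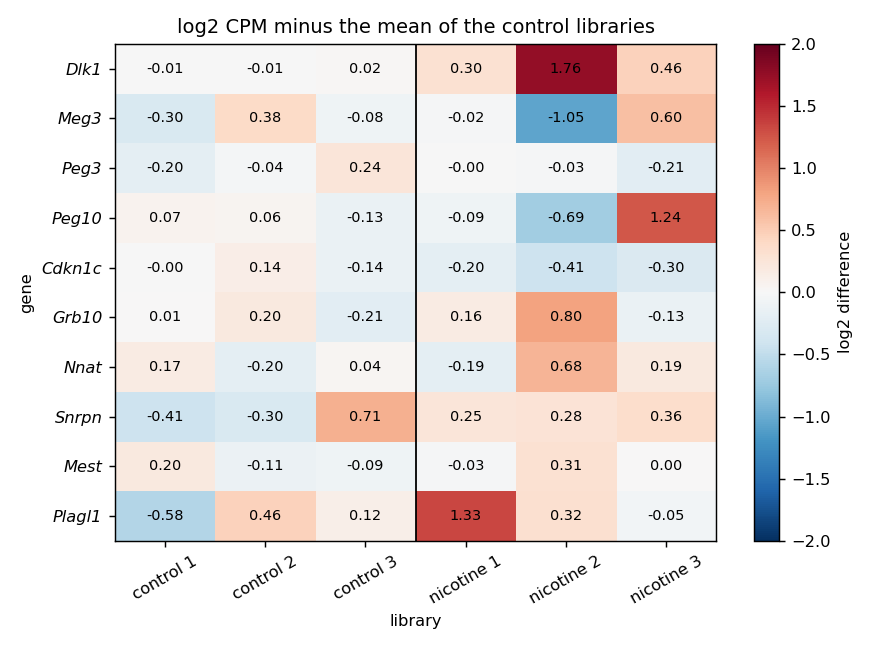
Log2 CPM of each of the 10 imprinted genes (rows) in each library (columns) minus the mean of that gene over the 3 control libraries, with the difference printed and coloured red above 0 and blue below. Dlk1, Grb10, Nnat and Mest are highest in nicotine replicate 2, whereas Meg3, Peg10 and Cdkn1c are lowest there.

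Neighbours in the same imprinted clusters were examined as a list of 32 genes, of which 29 were in the files and 26 were tested. None of the 26 was called by edgeR or DESeq2, and 0 had an unadjusted edgeR p below 0.05, against 6.14% of all genes. Of these, 10 were higher and 16 lower in nicotine rats, with a median log2 fold change of -0.08 (-0.04 and again 0 genes below that p without nicotine replicate 2). The most counted were Cd81, a membrane protein of many cells, Ndn, which encodes necdin, and Pon2, an antioxidant enzyme, with mean levels of 313, 97.5 and 96.0 CPM. Ratios of counts within a cluster gave no separation of the groups. Peg10 over Sgce was 1.35, 1.33 and 3.06 in nicotine rats and 1.15, 1.27 and 1.88 in controls (exact permutation p = 0.5). Mest over Copg2 was 1.90 to 1.93 in nicotine rats and 1.75 to 2.23 in controls (exact permutation p = 1).

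Genes listed as imprinted outside those clusters formed a second list of 25, with 23 in the files and all 23 tested. None was called, 3 had an unadjusted edgeR p below 0.05 (6.14% of all genes) and 3 did not overlap between groups (11.3% of all genes). Rasgrf1, a Ras activator, was 19.7, 24.7 and 19.7 CPM in nicotine rats and 9.34, 15.7 and 15.2 CPM in controls, so every nicotine library was the higher. A log2 fold change of 0.67 resulted (standard error 0.22; edgeR adjusted p = 0.760). Slc38a4, an amino acid transporter, had a log2 fold change of 0.42 (adjusted p = 0.806), and Kcnk9, a potassium channel, of -0.87 (adjusted p = 0.785) with edgeR. Gnas, which encodes the stimulatory G protein subunit, was the most counted of the list at 4831 CPM, followed by Nap1l5 at 198 CPM and H13 at 133 CPM. The median log2 fold change of the 23 genes was 0.12. Without nicotine replicate 2 it was 0.06, with 2 genes below the unadjusted p of 0.05 against 6.67% of all genes.

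Factors known to set or maintain imprints, such as Trim28, Ctcf and Smchd1, were 11 tested of 12 listed. None was called and 0 had an unadjusted edgeR p below 0.05, against 6.14% of all genes. Of the 11, 9 were higher and 2 lower in nicotine rats, against 8824 and 8468 of all genes tested. Their median log2 fold change was 0.10 (-0.0075 without nicotine replicate 2). Trim28, the corepressor that ZFP57 recruits, was at 155 CPM, Ctcf at 48.3 CPM and Smchd1 at 39.9 CPM on average. Genes that act with the members, including Notch receptors, cyclins and the PACAP receptor, were 21, all tested. None was called, 2 had an unadjusted edgeR p below 0.05 (6.14% of all genes) and 2 did not overlap between groups (11.3% of all genes). Their median log2 fold change was 0.16. Without nicotine replicate 2 the median was -0.03, and 4 genes were below that p against 6.67% of all genes. Adcyap1r1, the PACAP receptor, was 55.1, 73.5 and 66.7 CPM in nicotine rats and 45.6, 45.7 and 47.8 CPM in controls, with every nicotine library above every control. The difference was 0.49 on the log2 scale (standard error 0.16; edgeR adjusted p = 0.760), and 0.38 without nicotine replicate 2. Notch3 was 7.21, 6.05 and 8.66 CPM against 2.59, 5.16 and 5.20 CPM, with a log2 fold change of 0.73 (edgeR adjusted p = 0.799). The most counted were Atp2a2 (193 CPM), Cdk4 (165 CPM) and Eif4e (106 CPM).

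Markers of other cell types were read in the same libraries. No marker was called by edgeR, and the counts below are at an unadjusted edgeR p below 0.05, which 6.14% of all genes reached. Summed posterior lobe markers were 80.4, 223 and 80.7 CPM in nicotine rats and 74.3, 38.7 and 10.6 CPM in controls, with 4 of 5 markers higher (1 of 5 without nicotine replicate 2). Fibroblast markers were 345 to 815 CPM in nicotine rats and 892 to 1047 CPM in controls, with 6 of 7 lower (5 without that library).

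Summed levels overlapped between groups for the vessel and blood cell lists. Smooth muscle markers were 51.1 to 209 CPM against 43.2 to 60.7 CPM, with 4 of 7 higher (6 without that library). The highest sum came from Tagln, a smooth muscle actin-binding protein, at 137.9 CPM in nicotine replicate 3. Acta2, smooth muscle actin, was the 1 marker called by DESeq2, at 2.74, 2.21 and 2.54 CPM in nicotine rats and 0.259, 0.984 and 0.449 CPM in controls (log2 fold change 2.01, adjusted p of 0.492 in edgeR and 0.00151 in DESeq2). Endothelial markers were 169 to 277 CPM against 139 to 185 CPM, with 3 of 6 higher (5 without that library). Macrophage markers were 44.9 to 80.9 CPM against 78.8 to 85.8 CPM, with 2 of 5 lower (0 without that library).

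Neutrophil and red cell markers formed 1 list of 7, all lower, with a sum of 2529 to 7842 CPM against 6732 to 14230 CPM that was nearly all globin (Hba-a1 and Hbb). For its 4 neutrophil genes, S100a8, S100a9, Camp and Ngp, control replicate 2 was the lowest of the 6 libraries, so the lower mean in nicotine rats rested on the other 2 controls. S100a8 was 5.09 to 6.10 CPM in nicotine rats and 35.3, 1.02 and 26.6 CPM in controls. Without nicotine replicate 2, 4 of the 7 were lower at that threshold. Stem and folliculostellate markers (302 to 402 CPM against 291 to 349 CPM) and neuron markers (341 to 397 CPM against 330 to 390 CPM) had 0 markers at that threshold, and intermediate lobe markers (122 to 270 CPM against 184 to 446 CPM) had 1 of 3, lower. In these lists no marker was at 0 in any library, whereas all 5 germ cell markers were at 0 in at least 1. The part of these cell types in the values of the imprinted genes was not tested.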

How the data were processed

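Pituitary RNA of 3 nicotine and 3 control rats was sequenced by the authors. Per the labels and the study's methods, reads were demultiplexed with bcl2fastq 2.20.0.422, mapped to rn7 with HISAT2 2.1.0 and counted per gene with featureCounts, and the authors compared groups with DESeq2 2.11.40.7 (versions from the submitters' processing notes). The deposited values are raw counts per gene symbol, not normalized. The handling of strand, multiply mapped reads and read pairs by the counter was not given in the sources used here, so overlapping pairs (Meg3 and Mir770, Peg3 and Apeg3, Nnat and Blcap, Snrpn and Snurf) are uncertain.

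Counts of 17292 genes passing filterByExpr were scaled by TMM (factors 0.957 to 1.07) and fitted by quasi-likelihood with edgeR 4.0.16 (R 4.3.3, limma 3.58.1), with p-values adjusted over all genes tested by Benjamini-Hochberg. The common biological coefficient of variation was 23.6%. Single genes were also compared by exact two-sided permutation of the libraries. DESeq2 1.42.0, 7 other settings and leaving out each of the 6 libraries served as alternatives. The main edgeR fit, DESeq2 and voom with quality weights were tested on simulated counts, and the other steps were not. Transcript lengths were not used here, so levels are not compared between genes. RefSeq (GRCr8) gave promoter sequences, synonyms and the gene spans from which overlapping genes were found. The rn7 counts themselves were used as deposited. Rian, Mirg, Kcnq1ot1, Airn and Peg13 were not matched.

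Samples were grouped by their titles. The members and lists were chosen with earlier results of these data known. All 10 members were to be named, with, from each other list, genes at an unadjusted p below 0.05, the 3 most abundant and any called gene, and for each member the most alike imprinted gene. For cell type markers, counts and ranges are given instead. Same-numbered libraries did not deviate together (correlations 0.026, -0.198 and -0.078), so no pairing of the rats by number was seen. With 3 libraries in each group and no dam or litter given, these correlations cannot exclude a pairing. Each library held 28318383 to 85977002 counts, and Snrpn, with the fewest, had 8 to 46, so its values carry the largest counting error among the members.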

Additional observations from a re-analysis of the deposited data

How the results depend on the processing

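Under the 14 alternatives the number of members called stayed at 0, and the lowest adjusted p of a member was 0.210 (Dlk1, DESeq2). Over all genes the count called was 0 in edgeR, 62 with DESeq2, 1 with library sizes alone, 2 without a filter, 1 with thinned counts, 1 with voom and quality weights, 2 with the replicate block and 0 to 9 when 1 library was left out (9 without nicotine replicate 3, 4 without control replicate 2, 1 without nicotine replicate 2). Members at an unadjusted p below 0.05 numbered 1, and 0 with the replicate block (5.21% of all genes); they numbered 0 to 3 with 1 library left out, with 3 without nicotine replicate 3 (Dlk1, Grb10 and Plagl1; 7.13% of all genes in that fit) and 0 without any 1 of the controls (3.82% to 4.97% of all genes). Of 139 log2 fold changes of members under an alternative, 9 changed sign. Meg3 became 0.0772 with voom and ranged from -0.48 to 0.28 with 1 library left out, and Snrpn became -0.0492 with thinned counts and ranged from -0.0232 to 0.69. With 1 library left out, Peg3 ranged from -0.18 to 0.0435, Peg10 from -0.37 to 0.71, Nnat from -0.0028 to 0.45 and Mest from -0.0272 to 0.20. Values kept their sign for Dlk1 (0.37 to 1.25), Cdkn1c (-0.37 to -0.23), Grb10 (0.003 to 0.50) and Plagl1 (0.08 to 0.85) with 1 library left out. Why the values moved was not tested. The alternative for levels between genes was not run, since no transcript lengths were used. With 3 rats a group, the width of the intervals limits what the comparison could show.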
